A study of Mus musculus with 28 samples.

Results

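The contacts of the Gata6 promoter were compared between anterior neural progenitor cells (AntNPC) and embryonic stem cells (ESC) that carry an inserted CpG island (CGI) in the Gata6 domain. The comparison rests on 2 of the 28 samples of the series, 1 library in each cell state, chosen by their labels: the AntNPC library with the Gata6 promoter as viewpoint and the CGI insert, and the ESC library labelled as insertion viewpoint with the CGI insert. Data of 13 samples were at hand. Only the 5 Gata6 promoter libraries among them were analysed, and the other samples were not analysed here. The assay was 4C-seq (circular chromosome conformation capture with sequencing), which cuts and religates crosslinked chromatin and sequences the restriction fragments joined to 1 chosen fragment, the viewpoint.

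Both cell states were of the mouse ESC line E14Tg2a. The AntNPC were taken at day 5 of a differentiation in N2B27 medium, with bFGF at first and the WNT inhibitor Xav939 later. The ESC (day 0) are labelled 2i+LIF, whereas the growth protocol in the labels describes serum and LIF. The genotype label of both is Knock-in_PESox1-CGI in the Gata6 TAD (topologically associating domain, a stretch of chromosome whose parts contact each other more than their surroundings). The insert is thus the CGI of PE Sox1, a poised enhancer of the neural gene Sox1. The position of the insert, the number of clones and whether one or both alleles carry it are not stated in the labels. Libraries of 3 further AntNPC genotypes from the same promoter viewpoint were set beside the pair to show how far libraries of 1 cell state lie apart: Knock-in_PESox1-TFBS (the transcription factor binding sites of PE Sox1), Knock-in_PESox1-TFBS+CGI and wild type (WT).

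Gata6 encodes a zinc-finger transcription factor of endoderm and heart, and is silent or low in the neural lineage. Poised enhancers are elements of developmental genes that carry Polycomb marks in ESC and can contact their target promoters before either is active. CpG islands are the CpG-rich stretches to which Polycomb complexes are recruited. Contact frequency in 4C-seq falls with distance from the viewpoint, and domain borders sharpen that fall.

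The label of the ESC library conflicts with its data. Its highest fragment was that of the Gata6 promoter, on chromosome 18 from 11053305 to 11053963 (mm10), 659 bp long and 0.795 kb past the annotated start of Gata6, which is also the highest fragment of all 4 AntNPC libraries. This fragment held 78.1% of the reads in AntNPC CGI and 83.1% in ESC CGI, and exceeded the second highest fragment by 176-fold in AntNPC CGI and 117-fold in ESC CGI. The file header names the promoter viewpoint in the 4 AntNPC libraries and names no viewpoint in the ESC one. By its data the ESC library is therefore a promoter viewpoint library, and it was compared as such. Nothing measured here checks its genotype or cell state, which rest on the labels of a library whose viewpoint label does not hold.

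AntNPC CGI had 2523331 reads in all, and ESC CGI had 1023252. Within 1 Mb of the viewpoint, with 10 kb left out on each side, they had 67564 reads on 857 fragments in AntNPC CGI and 61773 reads on 1496 fragments in ESC CGI. These are called local reads below, and shares of them remove differences in depth and in reads of the viewpoint itself. With 1 library per cell state there was no replicate and no test was possible, so every difference is one between 2 libraries. Intervals are 95% intervals that treat each read as an independent count and leave out variation between libraries. The PCR reads carry no molecular identifiers, so copies of the same ligation are counted separately. The intervals are therefore too narrow for the contacts themselves. A difference is called where it passes 2-fold.

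The AntNPC library had a larger part of its reads on other chromosomes and a smaller part near the promoter than the ESC library. Local reads were 2.68% of all reads in AntNPC CGI and 6.04% in ESC CGI. Reads on chromosome 18 beyond 1 Mb, called far cis, were 1.56% of all reads in AntNPC CGI and 2.81% in ESC CGI. Reads on other chromosomes were 14.8% in AntNPC CGI (14.74 to 14.82) and 5.12% in ESC CGI (5.073 to 5.159), a 2.89-fold difference. Of the reads farther than 10 kb from the viewpoint, 14.1% were local in AntNPC CGI and 43.2% in ESC CGI.

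The other AntNPC libraries show how much of this varies within 1 cell state. Their reads on other chromosomes made up 5.7% in WT, 8.8% in TFBS and 4.85% in TFBS+CGI, so AntNPC CGI was the highest of the 4 and ESC CGI lay inside their range. The local part of the reads beyond 10 kb was 19.1% in WT, 35.7% in TFBS and 27.1% in TFBS+CGI. In that measure ESC CGI lay above all 4 AntNPC libraries and AntNPC CGI below the other 3. The part of ligation quality in these values was not tested.

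**Figure D1:**
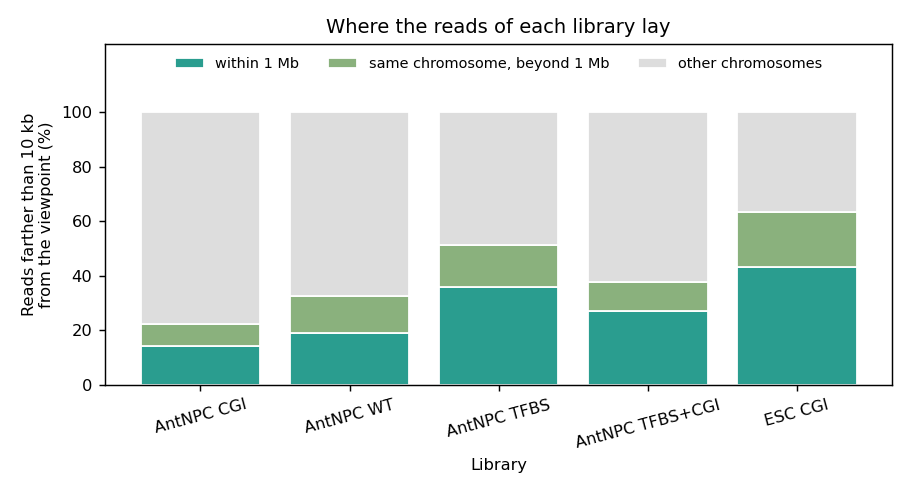
Share (%) of the reads farther than 10 kb from the viewpoint that lay within 1 Mb, on the same chromosome beyond 1 Mb, or on other chromosomes, for the 4 AntNPC libraries and ESC CGI (1 library per bar). The part on other chromosomes is 77.7% in AntNPC CGI and 36.6% in ESC CGI, and the other AntNPC libraries lie between them.

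AntNPC CGI had fewer fragments with more reads each. The mean was 78.8 reads per local fragment in AntNPC CGI and 41.3 in ESC CGI, and the 10 tallest fragments held 9.48% of local reads in AntNPC CGI and 5.85% in ESC CGI. In AntNPC CGI 99 fragments were enough for 50% of the local reads, whereas ESC CGI needed 218. WT and TFBS+CGI were also concentrated, with 63 and 114 fragments for the same part, but TFBS needed 302. Of the 3167 local fragments read in any of the 5 libraries, AntNPC CGI had 27.1% and ESC CGI 47.2%. A single fragment therefore weighs more in the AntNPC library, and values that rest on few fragments are given below with their number.

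The decay of contacts with distance was alike in slope and different in where the middle and outer distances lay. The slope of log10 reads per kb on log10 distance was -0.83 in AntNPC CGI and -0.86 in ESC CGI, and between -0.95 and -0.86 in the other AntNPC libraries. The slope difference of 0.03 turned to -0.02 with tall fragments capped and to -0.10 when each fragment counted once. The median distance of a local read was 178 kb in AntNPC CGI and 159 kb in ESC CGI, and that of ESC CGI lay within the range of the AntNPC libraries, 138 kb in TFBS+CGI to 179 kb in WT.

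AntNPC CGI had more of its local reads at 200 to 500 kb and fewer at 500 to 1000 kb. The share at 200 to 500 kb was 35.4% in AntNPC CGI and 25.8% in ESC CGI (log2 ratio 0.46, 0.43 to 0.49). At 500 to 1000 kb it was 11.8% in AntNPC CGI and 17.2% in ESC CGI (log2 ratio -0.54, -0.58 to -0.50). Neither difference passes 2-fold. ESC CGI lay outside the range of all 4 AntNPC libraries in both bins, just below the lowest (27.9% in WT) at 200 to 500 kb and 1.17-fold above the highest at 500 to 1000 kb. It was also above all 4 at 25 to 50 kb, where AntNPC CGI had 11.8% and ESC CGI 14.8%, and below all 4 at 100 to 200 kb, where AntNPC CGI had 17.3% and ESC CGI 15.1%. In the bins at 10 to 25 kb and 50 to 100 kb the ESC value lay inside the AntNPC range, although without TFBS+CGI it was above the other 3 at 50 to 100 kb.

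The 2 sides of the promoter carried these differences unequally. The Gata6 promoter lies between a side of lower coordinates that holds Mib1, Abhd3, Snrpd1, Esco1, Greb1l and Rock1 and a side of higher coordinates that, past the end of Gata6, has no protein-coding gene until Rbbp8 at 580 kb. The side of lower coordinates held 40.2% of local reads in AntNPC CGI (39.86 to 40.6) and 50.2% in ESC CGI (49.8 to 50.59), a difference of -9.96 percentage points (-10.5 to -9.42). That share was 49.2% in WT, 40.4% in TFBS and 48.2% in TFBS+CGI. The ESC library thus lay above all 4 AntNPC libraries, but only 1 point above WT, while AntNPC CGI and TFBS stood close together and lower.

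The largest gap on the side of lower coordinates was in its outer bin. Between 500 and 1000 kb there, AntNPC CGI had 4.07% of its local reads and ESC CGI 9.99% (log2 ratio -1.30, -1.36 to -1.23). The other AntNPC libraries had 4.89% in WT, 4.78% in TFBS and 5.66% in TFBS+CGI, so the 4 AntNPC libraries lay close together and ESC CGI was 1.76-fold above the highest of them. The reads of this bin lay on 43 fragments in AntNPC CGI and 176 in ESC CGI. As a share of all local fragments this was 5.02% in AntNPC CGI and 11.8% in ESC CGI, and between 6.97% and 8.28% in the other 3. Without the 5 tallest local fragments of each library the bin held 4.3% in AntNPC CGI and 10.3% in ESC CGI. Reads over Greb1l made up 2.75% in AntNPC CGI and 6.1% in ESC CGI, and the rest of the bin 1.32% in AntNPC CGI and 3.89% in ESC CGI. The rest of the bin reached at most 3.19% in the other AntNPC libraries (TFBS+CGI), so away from Greb1l ESC CGI was still the highest of the 5 libraries, by a smaller margin.

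On the side of higher coordinates the gap ran the other way, in the gene-free stretch at 200 to 500 kb. AntNPC CGI had 26.7% of its local reads there and ESC CGI 14.1% (log2 ratio 0.92, 0.88 to 0.95). The other AntNPC libraries had 17.4% in WT, 23% in TFBS and 16.8% in TFBS+CGI, and ESC CGI was 1.19-fold below the lowest of them. By the number of fragments the bin held 22.1% of the local fragments in AntNPC CGI and 17.6% in ESC CGI, with 22.3% in WT, 23.5% in TFBS and 19.5% in TFBS+CGI. AntNPC CGI was thus the highest by reads but not by fragments. Without the 5 tallest local fragments of each library the bin held 24.5% in AntNPC CGI and 14.6% in ESC CGI. Nearer to the promoter, at 25 to 50 kb on this side, AntNPC CGI had 4.93% and ESC CGI 7.14%, and the ESC value was 1.41-fold above the highest AntNPC library. Of the 6 bins on the side of lower coordinates, ESC CGI lay above all 4 AntNPC libraries in 1 and inside their range in 5. Of the 6 on the side of higher coordinates it lay above in 1, below in 1 and inside in 4.

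**Figure D2:**
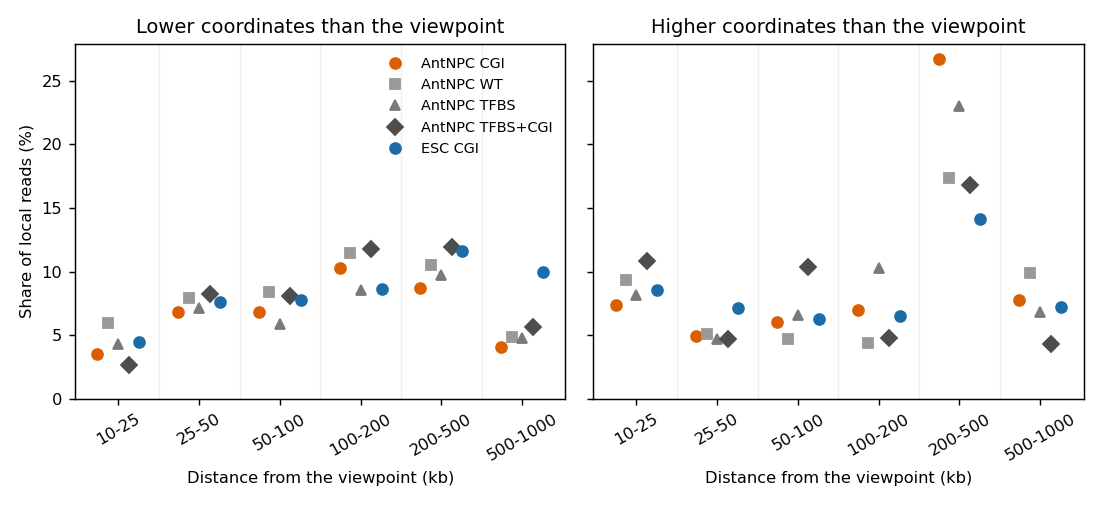
Share of local reads (%) in 6 distance bins (kb) on each side of the Gata6 promoter, 1 point per library, with the 4 AntNPC libraries left of ESC CGI in each bin. ESC CGI stands above all AntNPC libraries at 500 to 1000 kb on the side of lower coordinates (9.99%) and below all of them at 200 to 500 kb on the other side (14.1%).

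Windows of 50 kb were laid from 50 kb outward on each side, so the first 50 kb next to the promoter are left out of them. In these windows the excess of the AntNPC library was largest at 2 places in the gene-free stretch. The window centred 425 kb from the promoter held 7.34% of local reads in AntNPC CGI and 2.34% in ESC CGI (log2 ratio 1.65, 1.57 to 1.74). That centred at 325 kb held 6.11% in AntNPC CGI and 2.17% in ESC CGI (log2 ratio 1.49, 1.40 to 1.58). In the window at 325 kb ESC CGI was below all 4 AntNPC libraries, whose other values were 4.6% in WT, 4.02% in TFBS and 3.39% in TFBS+CGI. In the window at 425 kb it lay inside the range, since TFBS+CGI had 1.66%.

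On the side of lower coordinates, ESC CGI was above all 4 AntNPC libraries in 7 windows, centred 975, 825, 725, 575, 525, 475 and 375 kb from the promoter. The window at 525 kb, within Greb1l, held 0.238% of local reads in AntNPC CGI and 2.71% in ESC CGI (log2 ratio -3.51, -3.75 to -3.28), but WT had 2.6% there. Over all 38 windows AntNPC CGI was the highest of the 5 libraries in 7 and the lowest in 9, and ESC CGI was the highest in 8, or 21.1%, and the lowest in 3, or 7.89%. The number of highest windows was thus near that of any library, since 1 of the 5 has to be highest. Of the 20 windows beyond 500 kb AntNPC CGI was the highest in 4 and the lowest in 5, and ESC CGI the highest in 6 and the lowest in 1.

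**Figure D3:**
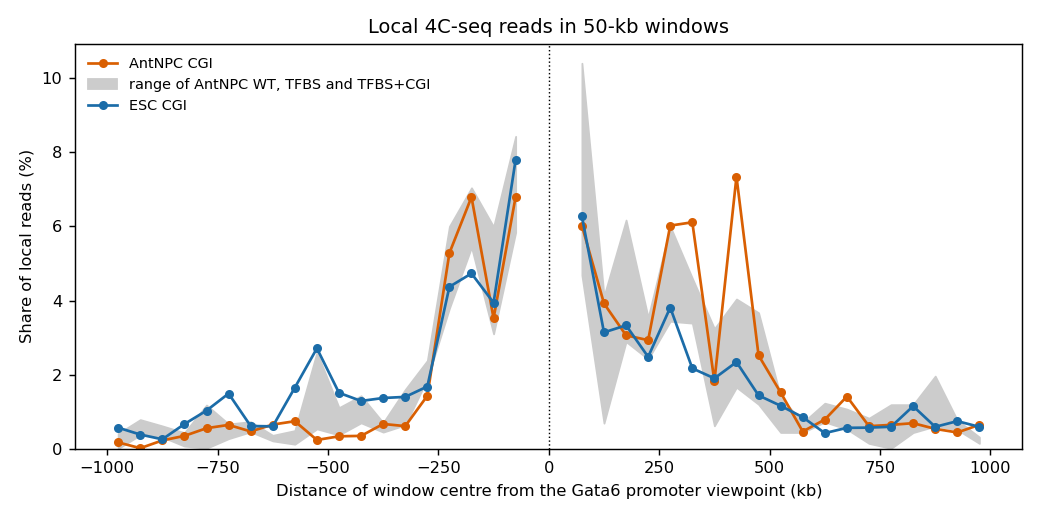
Share of local reads (%) in 50-kb windows by distance (kb) from the Gata6 promoter viewpoint, with AntNPC CGI and ESC CGI as lines and the range of the 3 other AntNPC libraries as a band. The first 50 kb on each side are not drawn. Among the windows drawn, AntNPC CGI is highest at 425 kb with 7.34%, above the band. ESC CGI lies above both AntNPC CGI and the band in 7 windows on the side of lower coordinates, at 375 to 975 kb.

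Most genes around Gata6 took a smaller share of local reads in AntNPC CGI than in ESC CGI. All 10 protein-coding genes within 1 Mb were measured, from 5 kb before each gene to 5 kb after it. None had a share at least 2-fold higher in AntNPC CGI (0%), and 5 had one at least 2-fold lower (50.0% of the 10). These 5 were Greb1l, Esco1, Abhd3, Snrpd1 and Rock1, which are the 5 genes farthest out on the side of lower coordinates, and the sixth gene of that side, Mib1, was not called. Of the 10 genes, 9 had a lower and 1 a higher share, with a median log2 ratio of -0.82. The gene spans together held 22.7% of local reads in AntNPC CGI and 31.9% in ESC CGI, with 30.7% in WT, 25.1% in TFBS and 25.9% in TFBS+CGI.

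Greb1l, which is needed for kidney development, lies from 10324933 to 10562945 on chromosome 18, 491 kb from the viewpoint. It held 2.77% of local reads in AntNPC CGI (1869 reads on 21 fragments) and 6.7% in ESC CGI (4139 reads on 114 fragments), a log2 ratio of -1.28 (-1.36 to -1.20). Its share was 3.82% in WT, 2.67% in TFBS and 2.47% in TFBS+CGI. The 4 AntNPC libraries spanned 1.54-fold and ESC CGI lay above all of them. Greb1l was also the gene that stayed past 2-fold when each fragment counted once, at a log2 ratio of -1.64. Over a range of 500 kb, which keeps only the end of the gene nearest the promoter, the log2 ratio was -4.94. That value rests on few fragments. The window from 10553634 to 10563633, most of that end, had 14 reads on 1 fragment in AntNPC CGI and 312 on 6 in ESC CGI. Its share was 0.0207% in AntNPC CGI, 0.0018% in WT, 0.271% in TFBS, 0.00641% in TFBS+CGI and 0.505% in ESC CGI.

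Esco1, which encodes an acetyltransferase of cohesin, the ring complex that forms chromatin loops, lies from 10566507 to 10610863. It held 0.645% of local reads in AntNPC CGI and 1.7% in ESC CGI (436 and 1053 reads, log2 ratio -1.40, -1.57 to -1.24). Abhd3, a hydrolase of phospholipids, lies from 10644411 to 10706783 and held 0.682% in AntNPC CGI and 2.13% in ESC CGI (461 and 1317 reads, log2 ratio -1.64, -1.80 to -1.49). ESC CGI was above all 4 AntNPC libraries for both genes, where the highest was 1.12% in TFBS for Esco1 and 1.47% in TFBS+CGI for Abhd3. By the number of fragments their log2 ratios were -0.52 for Esco1 and -0.91 for Abhd3, below 2-fold.

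Snrpd1 and Rock1 were also called, but the AntNPC CGI library stood apart there and not the ESC one. Snrpd1, which encodes a core protein of the splicing machinery, had 19 reads on 5 fragments in AntNPC CGI and 215 reads on 14 fragments in ESC CGI. Its share was 0.0281% in AntNPC CGI and 0.348% in ESC CGI (log2 ratio -3.63, -4.39 to -2.95), and 0.655% in WT, 0.446% in TFBS and 0.429% in TFBS+CGI. Rock1, a kinase of the actin cytoskeleton, had 0.287% in AntNPC CGI and 0.965% in ESC CGI (194 and 596 reads, log2 ratio -1.75, -1.99 to -1.51). The other AntNPC libraries had 0.982% in WT, 1.11% in TFBS and 1.01% in TFBS+CGI. For both genes ESC CGI lay nearer to the other AntNPC libraries than AntNPC CGI did.

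Mib1, the gene of the lower side that is nearest to the promoter and encodes a ubiquitin ligase of Notch ligands, held 3.02% in AntNPC CGI and 3.87% in ESC CGI (log2 ratio -0.36, -0.44 to -0.27). Gata6 itself, outside the 10 kb left out, held 10.6% in AntNPC CGI and 12% in ESC CGI (7168 and 7400 reads, log2 ratio -0.18, -0.22 to -0.13). The Gata6 share was 13.6% in WT, 10.6% in TFBS and 13.2% in TFBS+CGI, so the ESC value lay inside the AntNPC range. The sign for Gata6 depended on tall fragments, with log2 ratios of 0.12 when they were capped and 0.32 when each fragment counted once.

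Rbbp8, which encodes CtIP, a protein that starts the resection of DNA breaks, was the 1 gene with a higher share in AntNPC CGI. It held 2.21% in AntNPC CGI and 1.43% in ESC CGI (log2 ratio 0.63, 0.51 to 0.75), and ESC CGI was below all 4 AntNPC libraries, of which the lowest was TFBS+CGI with 1.58%. It had no more fragments in AntNPC CGI, 20, than in ESC CGI, 35, and on that count its share did not differ. Cables1, an adaptor of cyclin-dependent kinases, held 1.54% in AntNPC CGI and 1.99% in ESC CGI, inside the AntNPC range, and Tmem241 held 0.947% in AntNPC CGI and 1.18% in ESC CGI, above all 4 AntNPC libraries. Over the 10 genes ESC CGI lay above the 4 AntNPC libraries for 4 (40.0%; Greb1l, Esco1, Abhd3 and Tmem241), below them for 1 (10.0%) and inside their range for 5. Without TFBS+CGI these counts were the same. For each gene 1 of the 5 libraries has to be highest and 1 lowest, so these counts alone do not set ESC CGI apart.

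The direction of the gene values also depends on the denominator. In the deposited RPM, which divide by all reads, all 10 genes were lower in AntNPC CGI and 9 at least 2-fold so, with a median log2 ratio of -2.00 over the 10. The local part of all reads by itself differed by a log2 ratio of -1.17, which is the common shift of these values.

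**Figure D4:**
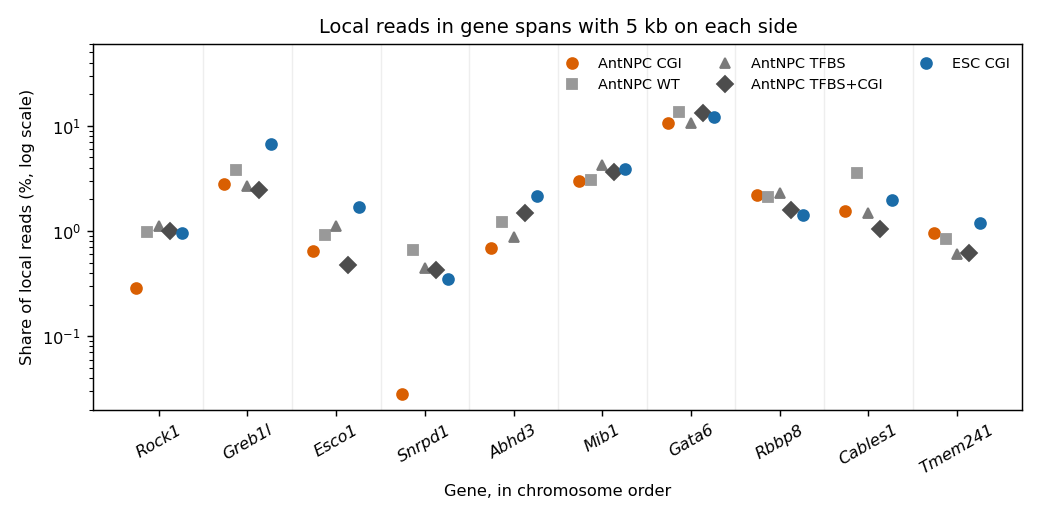
Share of local reads (%, log scale) over the 10 protein-coding genes within 1 Mb (each widened by 5 kb), in chromosome order, 1 point per library and the AntNPC libraries left of ESC CGI. ESC CGI is highest for Greb1l (6.7%), Esco1, Abhd3 and Tmem241, and AntNPC CGI stands alone at the low end for Snrpd1 (0.0281%) and Rock1 (0.287%).

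Between protein-coding genes, the 2 libraries differed in both directions. Gene-free here means free of protein-coding genes widened by 5 kb, and some such windows hold noncoding genes, among them Gata6os and Gm35814. Of the 97 gene-free 10-kb windows, 88 had reads in both libraries. The share was at least 2-fold higher in AntNPC CGI in 22 of them (25%) and at least 2-fold lower in 18 (20.5%), with a median log2 ratio of 0.13. The SD of the log2 ratios over these windows was 1.76. A further 9 of the 97 (9.28%) had reads in ESC CGI only, against 31 of the 196 windows read in either library when those with genes are included (15.8%), and none had reads in AntNPC CGI only. The balance depends on the scale: in the deposited RPM 4 gene-free windows were at least 2-fold higher in AntNPC CGI and 45 lower, and by the number of fragments 8 were higher and 3 lower. Over all 165 windows read in both libraries, genes included, 38 were at least 2-fold higher in AntNPC CGI (23.0%) and 53 at least 2-fold lower (32.1%). Gene-free windows together held 76.8% of local reads in AntNPC CGI and 65.1% in ESC CGI.

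The windows with the largest ratios show how few fragments such values can rest on. The window from 11353634 to 11363633, 305 kb from the promoter, had 2869 reads on 12 fragments in AntNPC CGI and 232 reads on 9 fragments in ESC CGI (4.25% and 0.376%, log2 ratio 3.50, 3.31 to 3.70). It was high in all 4 AntNPC libraries, with 3.53% in WT, 1.14% in TFBS and 0.995% in TFBS+CGI. The window from 11173634 to 11183633 had 225 reads on 1 fragment in AntNPC CGI and 1 read in ESC CGI (log2 ratio 7.68, 5.19 to 12.99), and 2 reads in WT. That from 11593634 to 11603633 had 277 reads on 4 fragments in AntNPC CGI and 5 reads on 2 in ESC CGI (log2 ratio 5.66, 4.42 to 7.30). Only the first of these 3 had all AntNPC libraries above ESC CGI by a wide margin.

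Of the windows that were lower in AntNPC CGI, that from 11243634 to 11253633 lay at 195 kb. It had 57 reads on 5 fragments in AntNPC CGI and 429 reads on 11 fragments in ESC CGI (log2 ratio -3.04, -3.47 to -2.64). Its share was 0.0844% in AntNPC CGI and 0.694% in ESC CGI, and 0.929% in WT, 0.92% in TFBS and 0.956% in TFBS+CGI, so here AntNPC CGI differed from its own cell state. The window from 11583634 to 11593633 had 0.101% in AntNPC CGI and 0.628% in ESC CGI (log2 ratio -2.64), with the other AntNPC libraries at 0.194% in WT to 0.255% in TFBS+CGI. The window from 10293634 to 10303633, close to Greb1l, had 31 reads in AntNPC CGI and 234 in ESC CGI (log2 ratio -3.05, -3.64 to -2.50).

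The tallest local fragments lay at different places. In ESC CGI all 5 lay within Gata6, 10.2 to 28.9 kb from the viewpoint, with 339 to 508 reads. In AntNPC CGI 2 of the 5 lay within Gata6 and 3 in the gene-free stretch. Of these 3, the tallest, from 11355220 to 11355310, had 1068 reads in AntNPC CGI and 2 in ESC CGI, and 2 reads in WT, 410 in TFBS and 574 in TFBS+CGI. The fragment from 11486613 to 11486768 had 670 reads in AntNPC CGI and 12 in ESC CGI, and that from 11473283 to 11473829 had 647 in AntNPC CGI and 0 in ESC CGI. In WT they had 7 and 4 reads. A tall fragment of 1 library was thus often nearly empty in another library of the same cell state.

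The 2 libraries shared 463 local fragments, which are 54% of those of AntNPC CGI and 30.9% of those of ESC CGI. Of the local fragments of AntNPC CGI, 36.8% were also read in WT, 64.8% in TFBS and 83.8% in TFBS+CGI. Of those of ESC CGI, 30% were also read in WT, 59.7% in TFBS and 64.1% in TFBS+CGI. The overlap thus varied as widely within AntNPC as across cell states. Over 198 windows of 10 kb the log2 shares of AntNPC CGI and ESC CGI correlated with a Pearson r of 0.63 and a Spearman coefficient of 0.66, and over 38 windows of 50 kb with 0.77 and 0.71. With the mean decay removed, r over the 10-kb windows was 0.29. Across cell states the 4 pairs with ESC CGI ranged from 0.53 to 0.67 over 10-kb windows, and the 6 pairs of AntNPC libraries from 0.52 to 0.71. These ranges overlap. With the mean decay removed they were 0.16 to 0.30 for the pairs with ESC CGI and 0.17 to 0.45 for pairs of AntNPC libraries, and over 50-kb windows 0.18 to 0.34 and 0.08 to 0.56. Windows share their distance from the viewpoint and the restriction map, so these values are descriptions.

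Low read counts recurred between some libraries. Of the 200 tallest fragments of TFBS+CGI on other chromosomes, 195 had reads in AntNPC CGI and 189 in ESC CGI, at a median of 0.796% and 0.603% of their reads. Between AntNPC CGI and ESC CGI there was little of this, with 25 of the 200 tallest of AntNPC CGI found in ESC CGI and 6 of the 200 tallest of ESC CGI found in AntNPC CGI. Of the 200 tallest of WT, 190 were found in TFBS (median 0.848%), and 192 of those of TFBS in WT (1.36%). In TFBS+CGI, 191 of those of AntNPC CGI (0.988%) and 134 of those of ESC CGI (1.12%) were found. The libraries set beside the pair thus shared such reads with another AntNPC library, and TFBS+CGI also with ESC CGI. The reads estimated to recur from the other libraries were 1.84% of local reads in AntNPC CGI and 1.52% in ESC CGI. The origin of these reads was not tested.

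On the rest of chromosome 18, reads reached farther out in AntNPC CGI than in ESC CGI. Far cis made up 36.8% of the reads of the chromosome outside 10 kb in AntNPC CGI (36.46 to 37.04) and 31.8% in ESC CGI (31.46 to 32.07), a log2 ratio of 0.21 (0.19 to 0.23). This difference of 1.16-fold lies inside the range of the AntNPC libraries, which had 41.5% in WT, 30.2% in TFBS and 27.8% in TFBS+CGI. Within far cis the order was clearer. At 1 to 2 Mb lay 13.5% of the far-cis reads in AntNPC CGI and 25.3% in ESC CGI (log2 ratio -0.91, -0.96 to -0.86), and at 2 to 5 Mb 11.4% in AntNPC CGI and 17.9% in ESC CGI (log2 ratio -0.65, -0.71 to -0.59).

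The outer distances ran the other way. At 20 to 50 Mb lay 32.8% of the far-cis reads in AntNPC CGI and 21.8% in ESC CGI (log2 ratio 0.59, 0.55 to 0.63), and at 50 to 100 Mb 22% in AntNPC CGI and 14.3% in ESC CGI (log2 ratio 0.62, 0.57 to 0.68). ESC CGI was above all 4 AntNPC libraries at 1 to 2 and 2 to 5 Mb and below all 4 at 10 to 20, 20 to 50 and 50 to 100 Mb. The highest AntNPC value at 1 to 2 Mb was 18.9% in TFBS, and the lowest at 20 to 50 Mb was 23% in TFBS+CGI. The lower side of the chromosome, the shorter stretch from this viewpoint, held 15.2% of far-cis reads in AntNPC CGI and 22.6% in ESC CGI. AntNPC CGI was also the library with the largest part of reads on other chromosomes, and the part of this in the far-cis values was not tested.

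**Figure D5:**
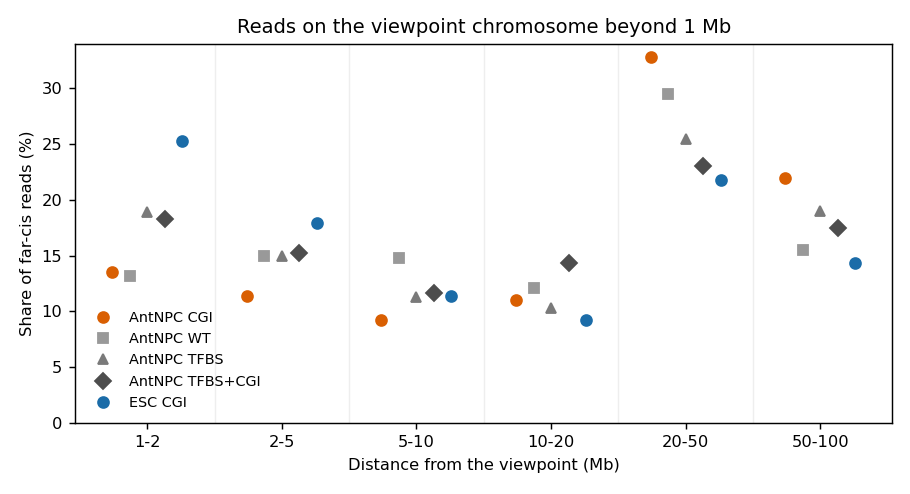
Share of the reads on chromosome 18 beyond 1 Mb (%) by distance from the viewpoint (Mb), 1 point per library, with the AntNPC libraries left of ESC CGI. ESC CGI is highest at 1 to 2 Mb (25.3%) and lowest at 20 to 50 Mb (21.8%), where AntNPC CGI has 32.8%.

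In bins of 1 Mb, the neighbourhood of the promoter led far cis in both libraries. The bin from 12 to 13 Mb, which holds Npc1, a cholesterol transporter of lysosomes, and Lama3, a laminin chain, had 6.87% of far-cis reads on 52 fragments in AntNPC CGI and 15.4% on 138 fragments in ESC CGI (log2 ratio -1.17, -1.24 to -1.10). The bin from 9 to 10 Mb, with the Wnt receptor gene Fzd8, had 6.03% in AntNPC CGI and 8.89% in ESC CGI. The bin from 13 to 14 Mb, with the histamine receptor gene Hrh4 and the zinc-finger gene Zfp521, had 1.66% in AntNPC CGI and 4.49% in ESC CGI (log2 ratio -1.44). The bin from 7 to 8 Mb, the next in AntNPC CGI, had 3.62% in AntNPC CGI and 3.04% in ESC CGI.

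Of the 86 far bins with reads in both libraries, 30 had a share at least 2-fold higher in AntNPC CGI (34.9%) and 16 one at least 2-fold lower (18.6%), with a median log2 ratio of 0.15. In the deposited RPM the balance turned, with 14 bins at least 2-fold higher in AntNPC CGI and 35 lower. The largest ratios rested on few fragments. The bin from 51 to 52 Mb, which holds Prr16, had 555 reads on 3 fragments in AntNPC CGI and 18 reads on 3 in ESC CGI (log2 ratio 4.50). Its share was 1.41% in AntNPC CGI, 0.0114% in WT, 0.512% in TFBS, 0.0199% in TFBS+CGI and 0.0626% in ESC CGI, so ESC CGI lay inside the AntNPC range. The bin from 74 to 75 Mb had 730 reads on 10 fragments in AntNPC CGI and 43 on 1 fragment in ESC CGI (log2 ratio 3.64), and ESC CGI again lay above TFBS+CGI, which had 0.0199%. The bins from 65 to 66 Mb, with the eye field gene Rax, and from 36 to 37 Mb, with protocadherin genes such as Pcdha1, were lower in AntNPC CGI, at log2 ratios of -3.21 and -3.03, with 50 and 70 reads in AntNPC CGI and 340 and 420 in ESC CGI. The bin from 36 to 37 Mb held 0.178% in AntNPC CGI, between 1.06% and 2.65% in the other AntNPC libraries and 1.46% in ESC CGI, so AntNPC CGI stood apart there. The bin from 65 to 66 Mb held 0.127% in AntNPC CGI, 1.24% in WT, 1.03% in TFBS, 0.213% in TFBS+CGI and 1.18% in ESC CGI. With so few reads in a bin of 1 Mb, such values describe these libraries only.

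Developmental genes of chromosome 18 showed no common direction. Of 28 listed genes 27 lie on the chromosome beyond 1 Mb, and 19 had reads within 50 kb in both libraries. Of these, 8 had a share of far-cis reads at least 2-fold higher in AntNPC CGI and 5 one at least 2-fold lower, with a median log2 ratio of 0.17. Of all 500 protein-coding genes of the chromosome beyond 1 Mb, 320 had reads in both, of which 101 were at least 2-fold higher (31.6%) and 136 lower (42.5%), with a median log2 ratio of -0.35. Of the 26 listed genes read in either library, 0 had reads in AntNPC CGI only and 7 in ESC CGI only. Over all 444 genes read in either library these counts were 44 in AntNPC CGI only and 80 in ESC CGI only (18.0%). Among the 7 was Rax, with 0 reads in AntNPC CGI, 954 in WT and 144 on 3 fragments in ESC CGI.

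Among the listed genes that were higher in AntNPC CGI, Dcc, a netrin receptor gene of axon guidance, had 240 reads on 5 fragments in AntNPC CGI and 29 reads on 4 in ESC CGI (log2 ratio 2.60, 2.04 to 3.21). Mbp, the gene of myelin basic protein, had 266 reads on 3 fragments in AntNPC CGI and 35 reads on 2 in ESC CGI (log2 ratio 2.48, 1.96 to 3.03). Pou4f3, a transcription factor gene of sensory hair cells, had 381 reads in AntNPC CGI and 106 in ESC CGI (log2 ratio 1.40). Ttr, the gene of the thyroid hormone carrier transthyretin, had 386 reads on 4 fragments in AntNPC CGI and 135 on 1 fragment in ESC CGI (log2 ratio 1.07, 0.78 to 1.36). Sall3, a zinc-finger gene, had 226 reads on 2 fragments in AntNPC CGI and 3 reads on 2 in ESC CGI (log2 ratio 5.79, 4.22 to 8.07). The other AntNPC libraries did not share these differences throughout. The share of Ttr was 0.983% in AntNPC CGI, 0.347% or less in the other 3 and 0.469% in ESC CGI. Sall3 had 0 reads in WT and TFBS, Pou4f3 had a smaller share in TFBS and TFBS+CGI than in ESC CGI, and Dcc and Mbp had a smaller one in TFBS+CGI than in ESC CGI. The other 3 were the neuronal kinase gene Camk2a, with 24 reads in AntNPC CGI and 1 in ESC CGI, the TGF-beta signalling inhibitor Smad7, with 5 and 1, and the corepressor gene Skor2, with 30 and 9, at intervals that run from 1.52 to 9.50, from -1.29 to 7.44 and from 0.18 to 2.55 in log2.

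Among those that were lower in AntNPC CGI, Tcf4, a helix-loop-helix factor gene of the nervous system, had 57 reads on 2 fragments in AntNPC CGI and 192 reads on 5 in ESC CGI (log2 ratio -2.20, -2.65 to -1.77). Setbp1, which encodes a SET-binding protein, had 15 reads in AntNPC CGI and 97 in ESC CGI (log2 ratio -3.14). Aqp4, the gene of a water channel of astrocytes, had 15 reads in AntNPC CGI and 90 in ESC CGI (log2 ratio -3.03). Sema6a, a semaphorin gene, had 19 reads in AntNPC CGI and 92 in ESC CGI (log2 ratio -2.72), and Zeb1, a repressor gene of epithelial genes, had 7 and 36 (log2 ratio -2.81). The WT library had 1329 reads at Tcf4 and 0 at Sema6a, so these genes also varied widely within AntNPC.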

How the data were processed

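The authors deposited 1 track per library, which lists restriction fragments and their RPM (reads over the library's depth). HISAT2 and mm10 are named per the submitters' processing notes, with no version or read filter given in the sources used here. Chromatin was cut with NlaIII and then DpnII, per the labels' protocols. All RPM values were whole multiples of the smallest value of their library within a tolerance of 0.1 (100% of values), so reads were recovered by division. A count test on them was not run, since each group has 1 library. Recovered totals ran from 1023252 to 7429563 reads over the 5 libraries. Local reads lie within 1 Mb of the viewpoint with 10 kb on each side left out. Shares have 95% Wilson intervals and log2 ratios exact conditional intervals, and both treat each read as an independent count. Correlations used log2 of the share in % plus 0.01. Gene positions are those of RefSeq on GRCm38.p6, which is mm10. Scripts ran in Python 3.11.15 with numpy 2.4.6, pandas 2.3.3, scipy 1.17.1 and matplotlib 3.10.9. The log2 ratios of 10-kb windows and their intervals were tested on simulated data with independent reads. The other measures were not tested in that way.

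The text names all protein-coding genes within 1 Mb, the 3 gene-free windows with the largest ratio each way (at least 0.1% of local reads in 1 library), the 3 largest far bins of each library and the 2 with the largest ratio each way (at least 1%), the 5 tallest local fragments and the listed genes past 2-fold. The 50-kb windows and the examples among far bins' genes were picked after their values were seen. The libraries and lists were chosen with earlier results of these data known. Alternatives were the deposited RPM, capped fragments, fragments counted once, fragments of at least 10 reads, the tallest fragment left out, other ranges around the viewpoint, gene spans alone, wider windows and other pseudocounts.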

Additional observations from a re-analysis of the deposited data

Results flagged for a closer look

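Reads at the donor locus of the insert lie outside the comparisons above. The inserted CGI comes from PE Sox1 on chromosome 8, so reads of the inserted copy and of the donor copy would map to the same place. Within 50 kb of Sox1 (chromosome 8, 12395519 to 12399555) AntNPC CGI had 8 reads on 2 fragments, or 3.17 RPM, and ESC CGI had 4 reads on 1 fragment, or 3.91 RPM. The limit that a count of 0 allows, 3 reads, corresponds to 1.19 RPM in AntNPC CGI and 2.93 in ESC CGI. The count of AntNPC CGI lies above it by 5 reads and that of ESC CGI by 1. A limit for a count of 0 does not show that these counts exceed background reads. The WT library had 1 read. TFBS+CGI had 845 reads and TFBS had 175, all on the fragment from 12429908 to 12430215, which also held 5 of the 8 reads of AntNPC CGI and all 4 of ESC CGI. The limit of 3 reads does not allow for reads that recur between libraries. Low reads of the tallest TFBS+CGI fragments on other chromosomes recurred in both CGI libraries. The median was 0.796% of their reads in AntNPC CGI and 0.603% in ESC CGI. Whether the few reads near Sox1 come from the insert was not tested.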

How the results depend on the processing

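Of 86 gene values under an alternative 82 kept their sign, and no called gene turned round. The deposited RPM shift all genes by the same amount, so lower genes had to stay lower there. Without the deposited RPM, 73 of 76 values kept their sign. The slope difference of 0.03 reversed to -0.02 with fragments capped at the 95th percentile and to -0.10 with each fragment counted once. It was 0.01 without the tallest fragment of each library, 0.01 with 25 kb left out on each side and 0.18 over a range of 500 kb. The log2 ratio at 200 to 500 kb, 0.46, was 0.32 capped, 0.11 by fragments, 0.40 without the tallest fragments, 0.42 with 25 kb left out and 0.37 over 500 kb, and that at 500 to 1000 kb was -0.65 by fragments. The difference between the sides, -9.96 points, was -10.7 capped, -6.15 by fragments, -11.4 with 25 kb left out and -7.56 over 500 kb. The log2 ratio of the far share, 0.21, was 0.16 capped, 0.25 by fragments and 0.38 beyond 2 Mb.

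Counts moved more. In the deposited RPM 9 genes were at least 2-fold lower in AntNPC CGI, and by fragments 1. Gene-free windows at least 2-fold higher were 4 in RPM, 8 by fragments and 2 in windows of 50 kb, and those lower were 45 in RPM, 3 by fragments, 11 over 500 kb and 0 in windows of 50 kb. Far bins higher were 14 in RPM and 19 by fragments, and those lower 35 and 7. RPM carry the smaller cis part of AntNPC CGI. Fewer windows are counted over 500 kb or at 50 kb, so those counts stand over a smaller total than the main ones. Whether that accounts for the change was not tested, nor was the cause of the other changes. The r of 0.63 was 0.70 with a pseudocount of 0.1% and 0.23 on presence of reads. With alternatives chosen after seeing the data, listed genes at least 2-fold higher were 5 by fragments and 4 over fragments of at least 10 reads, and those lower 2 by fragments. Leaving out fragments at or below the recurrence estimate, also chosen after seeing the data, moved no count by over 1.5 times.

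A range of 500 kb gives no value for Rock1, Rbbp8, Cables1, Tmem241 or the outer bin, and shares from the deposited RPM equal those from reads. No paired analysis was possible because each group has 1 library. Depth limits single far genes, many of which had under 100 reads.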
